A study of Mus musculus with 39 samples.

Results

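The 7985 regions described here were open chromatin in every ATAC-seq library of mouse cKIT+ spermatogonia and carried no called H3K27me3. The peaks of 5 ATAC-seq lists were merged wherever they overlapped by 1 bp or more, which gave 52248 regions. A merged region was kept when each of the 5 lists had a peak in it and when no peak of any of 5 H3K27me3 lists overlapped it. The kept regions were 15.3% of all merged regions and 92.4% of the 8644 regions open in all 5 libraries. They covered 9.32 Mb in all. The other 659 regions open in all 5 libraries overlapped H3K27me3 in at least 1 list and are called marked open regions below. The remaining 43604 merged regions were open in 1 to 4 libraries. The regions were selected on the measured peak calls themselves, so these counts are a description. Constant openness refers to these 5 libraries of cells sorted by cKIT. The purity of the sort was not tested, and markers of other cell types are read below.

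The study asked what loss of the histone demethylase gene Kdm6a in germ cells does to RNA and chromatin of the testis. Controls were Kdm6a fl/y and carried no Cre. The conditional knockouts (cKO) were Kdm6a fl/y with Ddx4-Cre, a transgene that is active in germ cells, so both genotypes carried the floxed allele on their only X. Cells bearing the receptor cKIT, a marker of differentiating spermatogonia, were sorted from dissociated testis. ATAC-seq came from 100000 cells a library and CUT&Tag for H3K27me3 from 50000, each in 2 control and 3 cKO libraries, and an IgG library was made from 1 control. Whole testis of 1 control and 1 cKO gave droplet single-cell RNA-seq. The labels give no age, and nothing in them says whether replicate libraries came from separate animals, so the SDs below measure only the spread between libraries.

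H3K27me3 is a histone mark of repressed genes, written by Polycomb repressive complex PRC2, whose catalytic subunit is Ezh2 or Ezh1, and removed by the demethylases Kdm6a and Kdm6b. ATAC-seq cuts DNA where nucleosomes leave it exposed, mostly at promoters and enhancers. Promoters rich in CpG dinucleotides are commonly open in all tissues and serve housekeeping genes, while those of silent developmental regulators are commonly covered by PRC2. In male germ cells, cKIT+ spermatogonia are the stage at which cells leave the stem cell pool and prepare for meiosis.

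The sequences below show what such open regions hold. RefSeq gives, for build GRCm38.p6, a promoter window from 250 bases before to 50 bases after each gene start, and the 250 bases before the start are printed, 5′ to 3′ on the gene's strand. Capitals mark matches, on either strand, to the motifs GCGCATGCG (NRF1), CCGGAAG (ETS factors), GGGCGG (SP and KLF factors), CCAAT (NF-Y), AAGATGGCG (YY1), TGACGTCA (CREB), CACGTG (E-box), CCACNAGGG (part of the CTCF motif) and TCTCGCGA (part of a palindrome of housekeeping promoters). None of these motifs contains another. Trim41 at chr11:48817392-48817641 (minus strand), which encodes a tripartite-motif ubiquitin ligase, and Fxr2 at chr11:69632721-69632970 (plus strand), which encodes an RNA-binding protein related to FMRP, are shown because their regions were among the 5 whose lowest rank over the ATAC lists was highest.
Trim41: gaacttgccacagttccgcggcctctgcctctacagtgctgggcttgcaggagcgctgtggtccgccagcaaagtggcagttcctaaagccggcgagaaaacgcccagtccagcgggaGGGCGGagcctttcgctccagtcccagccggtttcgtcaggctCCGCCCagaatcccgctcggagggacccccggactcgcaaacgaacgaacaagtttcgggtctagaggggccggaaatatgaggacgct
Fxr2: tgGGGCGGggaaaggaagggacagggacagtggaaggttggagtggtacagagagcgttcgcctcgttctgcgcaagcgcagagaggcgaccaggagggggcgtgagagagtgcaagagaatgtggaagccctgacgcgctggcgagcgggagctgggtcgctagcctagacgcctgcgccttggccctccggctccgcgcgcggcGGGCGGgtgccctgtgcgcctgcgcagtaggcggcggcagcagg

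The next promoters are those with the best-ranked region among starts with a given motif in the printed stretch. 5430402O13Rik, at chr6:50566393-50566642 (plus strand), holds an NRF1 match. Trmt10a, at chr3:138143549-138143798 (plus strand), which encodes a tRNA methyltransferase, holds an ETS match. Gm13483, at chr2:50296560-50296809 (plus strand), holds a YY1 match, and Siah1b, at chrX:164076136-164076385 (minus strand), a ubiquitin ligase gene, holds the housekeeping palindrome part.
5430402O13Rik: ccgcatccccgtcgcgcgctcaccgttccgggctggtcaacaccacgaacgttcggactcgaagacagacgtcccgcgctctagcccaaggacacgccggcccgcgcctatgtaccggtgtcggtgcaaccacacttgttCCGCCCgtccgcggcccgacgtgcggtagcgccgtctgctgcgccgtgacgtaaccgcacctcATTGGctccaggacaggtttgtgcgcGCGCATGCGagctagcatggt
Trmt10a: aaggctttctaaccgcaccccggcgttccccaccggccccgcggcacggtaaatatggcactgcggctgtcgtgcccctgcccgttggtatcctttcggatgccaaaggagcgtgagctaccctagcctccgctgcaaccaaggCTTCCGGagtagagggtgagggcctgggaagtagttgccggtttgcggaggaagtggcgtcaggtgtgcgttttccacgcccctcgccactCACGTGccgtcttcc
Gm13483: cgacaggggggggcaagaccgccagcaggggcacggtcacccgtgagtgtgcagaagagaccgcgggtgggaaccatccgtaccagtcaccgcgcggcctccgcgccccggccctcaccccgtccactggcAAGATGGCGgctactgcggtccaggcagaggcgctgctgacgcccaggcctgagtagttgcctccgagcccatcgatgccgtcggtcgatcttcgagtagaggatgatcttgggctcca
Siah1b: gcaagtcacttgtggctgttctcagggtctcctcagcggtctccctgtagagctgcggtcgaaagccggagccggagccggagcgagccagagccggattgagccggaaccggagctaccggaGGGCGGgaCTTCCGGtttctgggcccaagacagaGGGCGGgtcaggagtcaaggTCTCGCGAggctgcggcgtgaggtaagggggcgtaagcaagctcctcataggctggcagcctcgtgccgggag

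The last set holds genes on which the study and the cell type turn. Kdm6a, at chrX:18162325-18162574 (plus strand), is the deleted gene. Prdm9, at chr17:15564355-15564604 (minus strand), encodes the methyltransferase that places meiotic recombination, and Stra8, at chr6:34920698-34920947 (plus strand), is needed for entry into meiosis. All 3 lay in regions of the set. Kit, at chr5:75574737-75574986 (plus strand), which encodes the receptor used for the sort, lay in a marked open region and is printed as the contrast.
Kdm6a: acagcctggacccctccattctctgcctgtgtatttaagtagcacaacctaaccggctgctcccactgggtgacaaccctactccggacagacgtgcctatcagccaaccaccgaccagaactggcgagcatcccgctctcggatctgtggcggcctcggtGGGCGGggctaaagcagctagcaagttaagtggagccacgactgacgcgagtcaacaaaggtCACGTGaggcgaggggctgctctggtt
Prdm9: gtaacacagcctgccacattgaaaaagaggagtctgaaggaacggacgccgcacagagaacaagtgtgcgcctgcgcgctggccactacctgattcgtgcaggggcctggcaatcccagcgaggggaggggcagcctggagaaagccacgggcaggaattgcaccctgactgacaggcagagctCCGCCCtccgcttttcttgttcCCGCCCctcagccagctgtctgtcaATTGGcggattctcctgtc
Stra8: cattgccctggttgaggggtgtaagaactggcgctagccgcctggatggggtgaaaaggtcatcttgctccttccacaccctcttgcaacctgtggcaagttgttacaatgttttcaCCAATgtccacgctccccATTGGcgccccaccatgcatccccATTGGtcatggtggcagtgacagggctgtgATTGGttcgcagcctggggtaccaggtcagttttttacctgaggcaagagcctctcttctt
Kit: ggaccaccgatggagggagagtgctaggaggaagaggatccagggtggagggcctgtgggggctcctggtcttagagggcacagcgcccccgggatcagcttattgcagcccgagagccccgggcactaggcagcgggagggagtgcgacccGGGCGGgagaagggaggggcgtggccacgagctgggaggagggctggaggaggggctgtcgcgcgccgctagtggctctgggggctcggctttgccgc
The Stra8 stretch held 4 NF-Y matches and no SP or KLF match, whereas Kdm6a held 1 SP and KLF match and 1 E-box, Prdm9 held 2 SP and KLF matches and 1 NF-Y match, and Kit held 1 SP and KLF match.

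Before the results, 1 library needs a remark. The peak names inside the list of cKO 1 begin with the prefix that the list of control 1 also uses, although the lists differ (14635 and 19118 peaks). The genotype of the ATAC-seq library labelled cKO 1 is therefore in doubt, as is whether it and control 1 are separate samples. Means by genotype over the ATAC-seq libraries carry that doubt, and the values without this library stand beside them. Peak numbers differed widely. The lists held 19118 peaks in control 1, 33250 in control 2, 14635 in cKO 1, 18883 in cKO 2 and 40497 in cKO 3, so the rule is set mostly by the shortest list. Among the 3713 unmarked regions open in exactly 4 libraries, 2473 lacked a peak only in cKO 1 and 837 only in control 1, against 287 in cKO 2, 83 in cKO 3 and 33 in control 2. With cKO 1 left out and the other 4 libraries required, the set grew to 10460 regions, and all 7985 regions overlapped one of them. Dropping a required library loosens the rule, so this growth and overlap follow from it.

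The regions of the set took up similar numbers of peaks in each library but very different shares. They held 42.0% of the peaks in control 1, 24.2% in control 2, 54.8% in cKO 1, 42.6% in cKO 2 and 19.8% in cKO 3. The longest lists had the lowest shares, in either genotype. The rule asks for a peak of every library in each region, so the number is nearly constant and the share restates the length of the list. The mean share was 33.1% ± 12.5 (SD, n = 2) in controls and 39.1% ± 17.8 (SD, n = 3) in cKO, given as a description. The difference of 5.97 percentage points turned to -2.89 without control 2 and to -1.90 without cKO 1, and was 14.8 without control 1, 4.19 without cKO 2 and 15.6 without cKO 3.

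**Figure D1:**
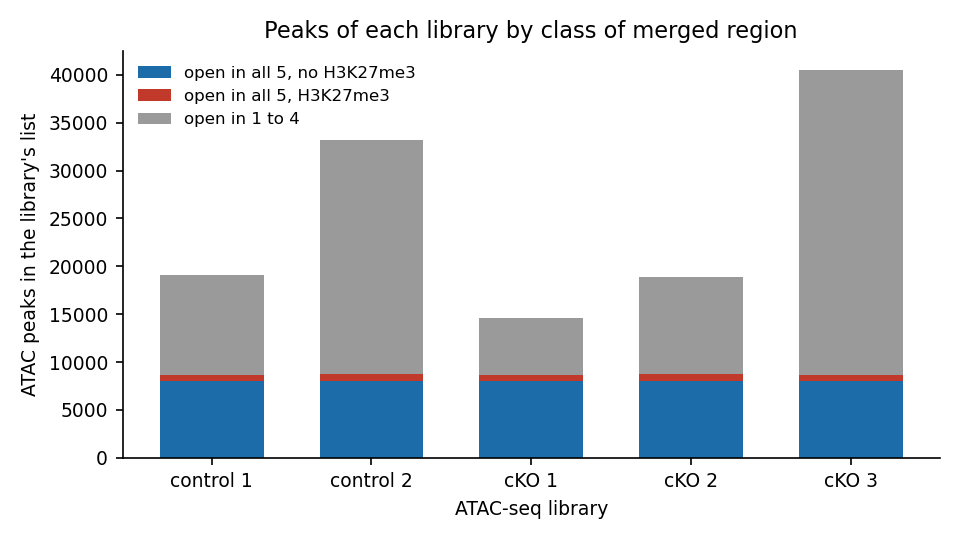
ATAC-seq peaks in each library's list (vertical axis, number of peaks), split by the class of merged region they fall in. The blue part, peaks in regions open in all 5 libraries without H3K27me3, stays between 8004 and 8058 while the lists range from 14635 to 40497 peaks.

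The covered length differed as much. Peaks of control 1 covered 68.2% of the bases of the set, those of control 2 82.3%, cKO 1 55.4%, cKO 2 62.3% and cKO 3 92.0%. The genotypes overlapped, with the highest and the lowest value both in cKO. The mean was 75.3% ± 9.98 (SD, n = 2) in controls and 69.9% ± 19.4 (SD, n = 3) in cKO, a signed difference of -5.39 percentage points. Without cKO 1 the difference was 1.85, and without control 2 it was 1.67, while it was -12.4 without control 1, -1.57 without cKO 2 and -16.4 without cKO 3. The covered bases come from the peak calls that chose the regions, so these values are a description.

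Regions of the set were 1066 bp wide in the median (quartiles 867 and 1361 bp), against 1223 bp for marked open regions and 507 bp for regions open in fewer libraries. A merged region spans every peak it holds, so the rule itself favours wide regions over those open in fewer libraries. The widest was chr3:6298026-6307450, 9425 bp long and 191009 bp from the nearest tabulated start. The next were chr13:6606028-6612687, 36084 bp from the start of Pfkp, which encodes a phosphofructokinase, and chr8:84974361-84980212, which holds the start of the transcription factor gene Junb. The narrowest was chr11:31922595-31922854, of 260 bp. Of the 3 widest regions, that of Junb had the lowest mean rank by fold enrichment. It had fold enrichments, the authors' values per peak over background, of 2.71 in control 1, 2.47 in control 2, 3.37 in cKO 1, 3.05 in cKO 2 and 2.25 in cKO 3. These lay at percentiles 0.638, 0.232, 26.5, 5.23 and 0.200 of their own lists, in the same order. Over the 5 lists the percentile of the widest region ranged from 5.91 to 27.1 and that of the next, on chromosome 13, from 1.37 to 46.4.

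Fold enrichment was ranked within each list, as the percentile of the region's highest peak, and folds of different lists stand side by side without being compared. The region with the highest lowest percentile over the 5 lists was chr2:66189210-66189473, 264 bp wide and 64417 bp from the start of Galnt3, a glycosyltransferase gene. Its fold enrichment was 14.1 in control 1, 14.8 in control 2, 15.7 in cKO 1, 17.9 in cKO 2 and 16.2 in cKO 3. A region of 968 bp on the X, chrX:92872017-92872984, followed, with 9.82, 14.3, 12.4, 16.8 and 10.6 in the same order of libraries. Neither lay at a tabulated gene start. Trim41, at chr11:48816905-48817634, had 10.1, 9.67, 9.83, 11.3 and 9.66, and Fxr2, at chr11:69632442-69632978, had 10.3, 9.71, 9.57, 12.4 and 9.78. One more lay on chromosome 18, which the promoter table does not hold. The lowest percentile of each of the 5 over the lists was between 99.47 and 99.99, and they were chosen for that.

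At the other end, the rule let in weak peaks. The smallest -log10 q over the 5 lists had a median of 5.92, was below 3 in 1830 regions of the set and reached 10 in 2399. The lowest values just inside were 1.31 near Pnrc2 (chr4:135876488-135876954), 1.33 near Ahrr (chr13:74259648-74260805) and 1.33 near Taf12 (chr4:132269678-132270658). The highest smallest values were 79.9 at Sp1, which encodes a zinc finger factor that binds GC boxes, 78.9 at Khsrp, an RNA-binding protein gene, and 78.9 at Ap2a1, an adaptor subunit gene of clathrin coats. Requiring a -log10 q of 3 in every peak left 6155 regions. Requiring each library to cover 50% of the region left 3976.

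Open regions without the mark ranked higher than open regions with it, in all 5 lists. The median percentile of the set was 75.0 in control 1, 85.9 in control 2, 69.2 in cKO 1, 76.2 in cKO 2 and 87.1 in cKO 3. For marked open regions it was 49.8, 67.4, 38.9, 48.7 and 72.0 in the same order. The difference was 23.3 ± 6.35 percentile points (SD, n = 5 libraries, higher in 5 of 5). All 5 lists rank the same regions, which these lists and those of H3K27me3 chose, so this is a description. The difference was 20.6 with -log10 q in place of fold enrichment and 21.6 without cKO 1. All 5 percentiles were at least 50 in 60.8% of the set and in 24.6% of the marked open regions.

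**Figure D2:**
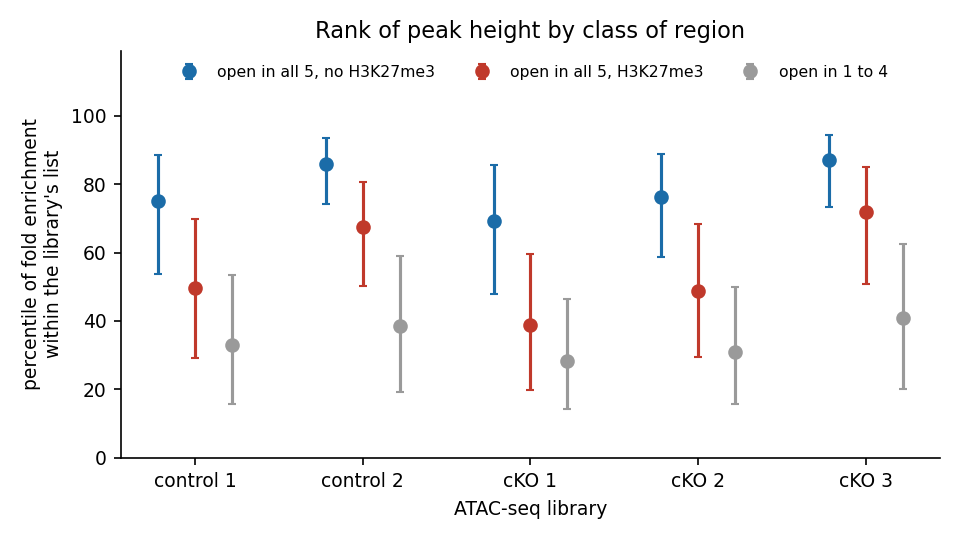
Percentile of fold enrichment within each ATAC-seq library's own list (vertical axis) for the 3 classes of region. Points are medians and bars run from the first to the third quartile of regions. In each library the blue median (69.2 to 87.1) lies above the red one (38.9 to 72.0).

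Fewer regions of the set than of other unmarked open regions had H3K27me3 nearby. The lists of that mark held 14545 peaks in control 1, 18494 in control 2, 11118 in cKO 1, 14584 in cKO 2 and 15368 in cKO 3, over 48.1, 81.3, 21.3, 30.3 and 70.1 Mb. A peak lay within 5 kb of 2.59% of the set in control 1, 3.97% in control 2, 1.28% in cKO 1, 1.85% in cKO 2 and 3.22% in cKO 3. For the unmarked regions open in fewer libraries the same shares were 5.00, 7.85, 2.42, 3.79 and 6.46%, higher in each library. The share for the set was 3.28% ± 0.974 (SD, n = 2) in controls and 2.12% ± 0.997 (SD, n = 3) in cKO, with a signed difference of -1.16 percentage points. The rule used the same lists, so this is a description. The difference was -0.476 without the H3K27me3 library of control 2 and -0.745 without that of cKO 1. The shares followed the order of the megabases covered in the 5 libraries. The cKO 2 list, unlike the others, is not described as downsampled.

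Over all 5 lists together, 77 regions of the set (0.964%) had H3K27me3 within 1 kb, 476 within 5 kb and 1676 within 20 kb. Just outside the rule, 203 of the 659 marked open regions overlapped the mark in only 1 list, and 156 did in all 5. The number of regions open in all 5 libraries that a list overlapped was 401 in control 1, 473 in control 2, 236 in cKO 1, 341 in cKO 2 and 425 in cKO 3. Leaving out any 1 H3K27me3 list can only add regions, and it raised the size of the set to between 8010 and 8055. The IgG library had 1449 regions. They overlapped 0 of the 7985 regions of the set, 22 of the 659 marked open regions and 185 of the 43604 others. The rule bars regions that an H3K27me3 peak overlaps, and how far that sets these counts was not tested.

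On the X chromosome, single-copy in males, the set held a larger share of the merged regions than on any autosome. It held 227 of the 1081 merged regions of the X (21.0%), against 15.2% over the autosomes, where single chromosomes ranged from 12.1 to 17.8%. Marked open regions were rare there, 2 regions or 0.873% of those open in all 5 libraries against 7.81% on autosomes. The H3K27me3 lists held 35 to 81 peaks on the X, and how far that sets the shares was not tested. The X held 2.48% of the ATAC-seq peaks in control 1, 2.43% in control 2, 2.76% in cKO 1, 2.62% in cKO 2 and 2.10% in cKO 3. That share was highest in the shortest list and lowest in the longest. Its part in the share of merged regions was not tested. X regions of the set had a median percentile of 77.4 in control 1, 89.0 in control 2, 73.9 in cKO 1, 82.4 in cKO 2 and 88.6 in cKO 3. Autosomal ones had 75.0, 85.7, 69.1, 75.9 and 87.0. A tabulated gene start was at 55.1% of the X regions and 70.3% of the autosomal ones, and single autosomes ranged from 49.1 to 77.1%. The promoter table is not complete, and its gaps were not counted by chromosome. This range therefore does not show whether the X is unlike autosomes.

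Most of the set lay at gene starts. The tables of gene starts and promoters came from RefSeq for GRCm38, the assembly that the submitters' notes call mm10. The 7776 regions outside chromosome 18 could be placed. A start lay within 500 bp of 5428 of them, or 69.8%, and inside 68.3%. The same share was 55.3% for marked open regions and 14.2% for regions open in fewer libraries. It rose with the number of libraries, from 6.60% of regions open in 1 library through 13.7, 22.4 and 37.7% of those open in 2, 3 and 4. Without cKO 1 it was 63.7%, and without control 1 64.9%. With starts shifted by 5 kb, 1.66% of the set held one, so the coordinates matched the starts of this build.

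**Figure D3:**
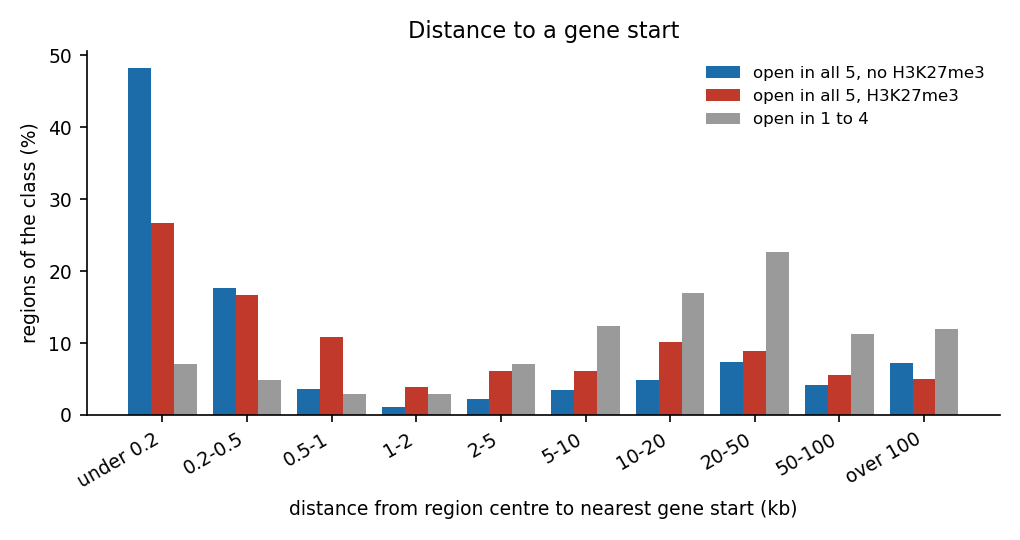
Distance from the centre of each region to the nearest tabulated gene start (horizontal axis, kb, in unequal bins) as a share of the regions of each class (vertical axis, %). Under 0.2 kb lay 48.2% of the regions open in all 5 libraries without H3K27me3, 26.7% of the marked open regions and 7.07% of the others.

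Regions at starts had stronger peaks than regions elsewhere. The smallest -log10 q had a median of 7.13 in the 5428 regions at a start and of 3.74 in the other 2348. Starts on both strands lay at 1241 of the 5428 regions (22.9%). Paired divergent genes have this layout, but the order of the starts was not checked, so other pairs count too. Starts on both strands lay at 16.4% of marked open regions with a start within 500 bp and at 8.80% of such regions open in fewer libraries. Region widths, with medians of 1066 bp in the set and 507 bp in all regions open in fewer libraries, were not matched. Among protein-coding genes in the table, 5897 of 17492 (33.7%) started at the set, 339 at marked open regions, 4679 at regions open in fewer libraries and 6577 at none. Of 9533 long noncoding RNA genes, 775 (8.13%) started at the set.

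Of the 12 demethylase and PRC2 genes in the table, 9 were in the set (75.0%, against 33.7% of all protein-coding genes). The wider share counts the 37.6% of protein-coding genes with no open region at their start. Among starts with an observed to expected CpG ratio from 0.8 to 0.9, 61.5% were in the set. This list and those below were not matched to other genes by CpG content or RNA level. Kdm6a lay in chrX:18161855-18163131, with fold enrichments of 6.37 in control 1, 6.24 in control 2, 6.29 in cKO 1, 7.51 in cKO 2 and 5.87 in cKO 3. These lay at percentiles 86.6, 88.5, 88.1, 91.6 and 87.3 of their own lists. A peak in every library is what the rule asked for. Rbbp7, Ezh2 and Mtf2 ranked highest, with mean percentiles of 96.0, 94.3 and 94.2. They encode a histone chaperone subunit of PRC2, its catalytic subunit and an accessory subunit that guides it to CpG islands. Rbbp4 had a mean percentile of 89.2, Suz12 79.7, Eed 77.8, Phf1 73.0 and Jarid2 67.7, and all encode core or accessory PRC2 proteins. Outside the set, Ezh1 lacked a peak only in cKO 1 and Uty, the Y-linked relative of Kdm6a, was open in 3 libraries. Phf19 had no open region.

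Genes of the KMT2C and KMT2D complexes, in which Kdm6a is a subunit, were in the set in 7 of 8 cases (87.5%, against the same 33.7%). Paxip1, which encodes the adaptor PTIP, had the highest mean percentile, 90.8, followed by Kmt2d, a methyltransferase of enhancers, with 75.4 and Dpy30, a core subunit, with 73.7. Ncoa6 was the exception and had no open region. Its absence rests on the tabulated start alone.

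Meiotic prophase genes were in the set in 13 of 18 cases (72.2%, against 33.7% of all protein-coding genes). The set also held 61.5% of all starts with a CpG ratio from 0.8 to 0.9. It held 60.1% of protein-coding genes in the sixth decile of RNA level in the control single cells described below. Whether the list differs from genes alike in these respects was not tested. Prdm9 (chr17:15563918-15564775) had fold enrichments of 8.53 in control 1, 9.53 in control 2, 6.93 in cKO 1, 8.33 in cKO 2 and 9.42 in cKO 3, at percentiles 98.2, 99.6, 92.8, 95.6 and 99.7 of their own lists. Sycp2, which encodes an axis protein of the synaptonemal complex, had a mean percentile of 96.3, and Stag3, a meiotic cohesin gene, had 94.3. Mlh3 and Hormad1 lacked a peak only in cKO 1, Mei1 was open in 2 libraries, and Msh4 and Rad21l had none. Of 9 germline genes whose promoters carry DNA methylation in somatic cells, 6 were in the set (66.7%), led by Dazl (mean percentile 86.9), an RNA-binding regulator of germ cells, Slc25a31 (85.8), a testis ADP/ATP carrier, and Sycp3 (74.1), an axis protein.

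Of 9 genes of differentiation and meiotic entry, 3 were in the set (33.3%, against 33.7% of all protein-coding genes), 2 in marked open regions and 4 in regions open in 4 libraries. With cKO 1 left out, 6 were in the set and 3 were marked. Stra8 (chr6:34920067-34922263, 2197 bp) had low peaks, of 3.13 in control 1, 3.82 in control 2, 3.19 in cKO 1, 3.81 in cKO 2 and 3.45 in cKO 3. Its nearest H3K27me3 peak lay 11589 bp away. Sohlh2, a transcription factor gene of early spermatogonia, had a mean percentile of 61.8, and Rarg, a retinoic acid receptor gene, 44.3. Kit overlapped H3K27me3 in control 1, cKO 1 and cKO 2. Rec8, a meiotic cohesin gene, did so in cKO 2 only. Dmrtb1, Dnmt3b and Kitl lacked a peak only in cKO 1, so their absence from the set rests on that library. Sohlh1 lacked one there too and was also marked in all 5 lists.

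Markers of cell types were read in the same way. Of the 9 spermatogonial markers in the table, 3 were in the set (Prdm9, Sohlh2, Stra8), a share of 33.3% against 33.7% of all protein-coding genes. Kit and Uchl1 were marked, Crabp1, Dmrtb1 and Sohlh1 were open in 3 or 4 libraries, and Nanos3 had no open region. Crabp1 and Sohlh1 were also marked in all 5 lists, and Dmrtb1 in none. Of 6 spermatid markers, Tssk6 was in the set and Prm1 was open only in control 2 and marked in 3 lists. Prm2, Tnp1, Tnp2 and Acrv1 had no open region. Of 3 Leydig cell markers, Cyp11a1 was open in all 5 libraries and marked in 1 list, and Hsd3b1 had no open region. Insl3 lacked a peak only in cKO 1 and was marked in all 5 lists. Of 2 macrophage markers, Cd68 was open only in control 2 and Ptprc had none. The Sertoli cell markers are not in the promoter table, so their starts were not placed, and Sox9 is read in the single cells.

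Most genes of the ribosomal protein and proteasome lists were in the set. Ribosomal protein genes were there in 54 of 62 cases and proteasome genes in 23 of 28, against 33.7% of all protein-coding genes. None of either list was marked. The ribosomal list was filled by gene name and includes paralogs. Rpl10l, Rpl39l, Rpl3l and Rpl32l were outside the set, while Rps27l and Rpl36al were in it. Rps19, Rpl27 and Rpsa led the ribosomal genes, and Psmd12, Psma2 and Psmd5 led the proteasome. In contrast, 0 of 22 homeobox cluster genes and 0 of 14 developmental transcription factor genes were in the set. Of these, 14 homeobox genes and 9 of the other genes lay at regions open in 1 to 4 libraries. The region read for each of them overlapped H3K27me3 in 3 or more lists. The rule bars such regions however many libraries are open there, so these counts of 0 partly follow from it. Neurog2, a neuronal regulator, was open in all 5 libraries and marked in all 5 lists. Sox2, Lhx2 and Nkx6-1, regulators of early embryo and neural tissue, were open in 4 libraries each and marked in all 5 lists. These are counts over lists, given as a description.

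Promoters in the set were rich in CpG. The observed to expected CpG ratio of the 300 base window had a median of 0.824 at the 7740 starts in the set. It was 0.716 at marked open regions, 0.594 at regions open in fewer libraries, 0.200 at starts with no open region and 0.384 at all 32841 starts. The ratio was 0.6 or higher at 85.4% of the starts in the set and below 0.3 at 151 of them (1.95%). The share of C plus G did not follow the same order, with a median of 62.7% in the set and 64.0% at marked open regions. The set held 0.505% of starts with a ratio below 0.1 and 12.9% of those from 0.4 to 0.5. From 0.8 upward the share stayed between 61.4 and 62.8%.

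**Figure D4:**
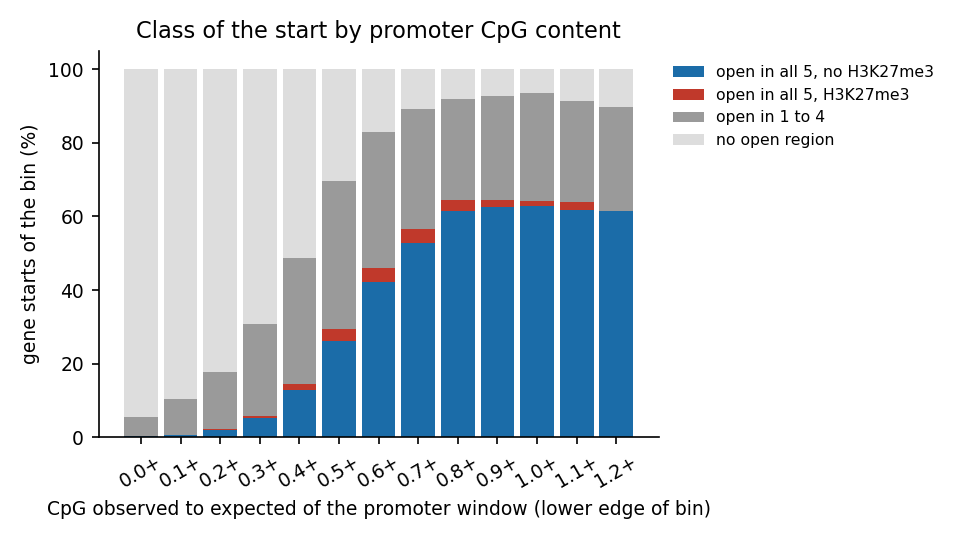
Gene starts binned by the observed to expected CpG ratio of their promoter window (horizontal axis, lower edge of each bin), and the share of each bin (vertical axis, %) that starts at each class of region. The blue share, open in all 5 libraries without H3K27me3, climbs from 0.505% in the lowest bin and levels off between 61.4 and 62.8% from 0.8 upward.

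Between open regions without and with the mark, motif matches differed by the most percentage points for the ETS letters. CCGGAAG occurred in 22.7% of windows in the set, 3.85% at marked open regions, 9.52% at regions open in fewer libraries, 2.53% at starts with none and 8.86% of all windows. Limiting the count to windows with a CpG ratio of 0.6 or higher left 24.2% in the set, 4.11% at marked open regions, 12.9% at regions open in fewer libraries and 9.74% at the rest. NRF1 letters were in 5.06% of windows in the set, 1.50% of marked and 1.75% of all. YY1 letters were in 3.97, 0.642 and 1.40%, and the housekeeping palindrome part was in 3.49, 0.428 and 0.996%. CREB letters were in 4.07, 2.14 and 1.79%. The SP and KLF letters did not part the 2 open classes, with 71.0% in the set, 69.6% of marked and 35.7% of all. Nor did NF-Y, with 41.9, 41.1 and 37.4%, or the E-box, with 11.6, 11.3 and 7.15%. The CTCF part was in 1.59, 1.71 and 1.45%. Of the 11762 windows with a ratio of 0.6 or higher, 6611 were in the set. There NRF1 letters were in 5.60% of the set, 1.76% of marked and 4.28% of all. YY1 letters were in 4.43, 0.880 and 3.46% and CREB letters in 4.48, 2.64 and 3.66%. The SP and KLF letters were in 74.8, 74.2 and 72.3%. For these motifs the set and all windows differed less there, but not for NF-Y, with 41.0, 39.0 and 35.7%. These are letter matches in windows that overlap between neighbouring starts, not bound sites, and no test was run.

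The set built without cKO 1 was described in the same terms, and these descriptions, unlike its size, were added after the data were seen. Its 10460 regions were 1032 bp wide in the median. H3K27me3 lay within 5 kb of 3.45% of them in control 1, 4.85% in control 2, 1.71% in cKO 1, 2.46% in cKO 2 and 4.12% in cKO 3, below the other unmarked regions in each library. The set held 28.4% of the merged regions of the X and 20.7% of those of the autosomes, and 1.64 and 10.8% of the regions open in all 4 libraries were marked. Of protein-coding genes, 39.4% started at it. Its gene lists held 55 ribosomal protein, 25 proteasome, 10 demethylase and PRC2, 7 KMT2C and KMT2D and 15 meiotic prophase genes. They also held 6 germline and 4 spermatogonial marker genes, and 0 of the homeobox cluster and developmental transcription factor genes. Open in all 4 libraries but marked, and so barred by the rule, were 1 homeobox cluster gene and 4 developmental transcription factor genes. The median CpG ratio was 0.814 at its starts and 0.709 at marked ones, and CCGGAAG occurred in 21.8 and 4.15% of those windows. Of its 6741 genes read in single cells, 95.8% were detected in control and 93.7% in cKO.

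RNA of the genes in the set was read in the single-cell libraries, where 643 of 11252 control cells and 429 of 8520 cKO cells passed a gate of at least 3 of 12 spermatogonial markers. Gated cells had a median of 8414 UMIs (molecules counted) in control and 7723 in cKO. Their summed totals were 8811282 and 5595263 UMIs, and the 2 libraries shared 0 gated barcodes. The gate also held spermatid RNA. All 6 spermatid markers were present, at 165 to 16057 CPM (counts scaled to a fixed total per library) in control and 180 to 13448 in cKO, with Prm1 the highest. Sox9, a Sertoli cell marker, was at 6.02 and 6.08 CPM, Insl3 of Leydig cells at 72.9 and 42.4, and Cd68 of macrophages at 0.340 and 0.536. Over all cells, without the gate, Insl3 was at 71.3 and 62.2 CPM and Prm1 at 26066 and 25694. With 4 markers required, Insl3 was at 1.92 and 4.67 CPM and Prm1 at 10622 and 9301. With 5 markers required, 193 and 145 cells were left and Prm1 was at 6242 and 9609 CPM. Whether the RNA of a given gene came from spermatogonia was not tested.

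Nearly all protein-coding genes in the set were detected in the gated cells. At least 10 UMIs were found for 97.2% of 5761 such genes in control and 95.5% in cKO, against 63.5 and 60.2% of all 16531 genes read. Of 332 genes at marked open regions, 229 were detected in control and 206 in cKO. The shares were 66.8 and 61.1% for genes at regions open in fewer libraries and 27.7 and 24.7% for genes with no open region. The median level was 27.8 CPM in control and 25.6 in cKO for the set, and 3.18 and 2.95 for marked genes. With 5 markers required the detected share of the set was 91.4% in control and 85.7% in cKO, over fewer cells. Only 12 of the 5761 genes had 0 UMIs in both libraries. With 1 library a genotype there is no test of these values.

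**Figure D5:**
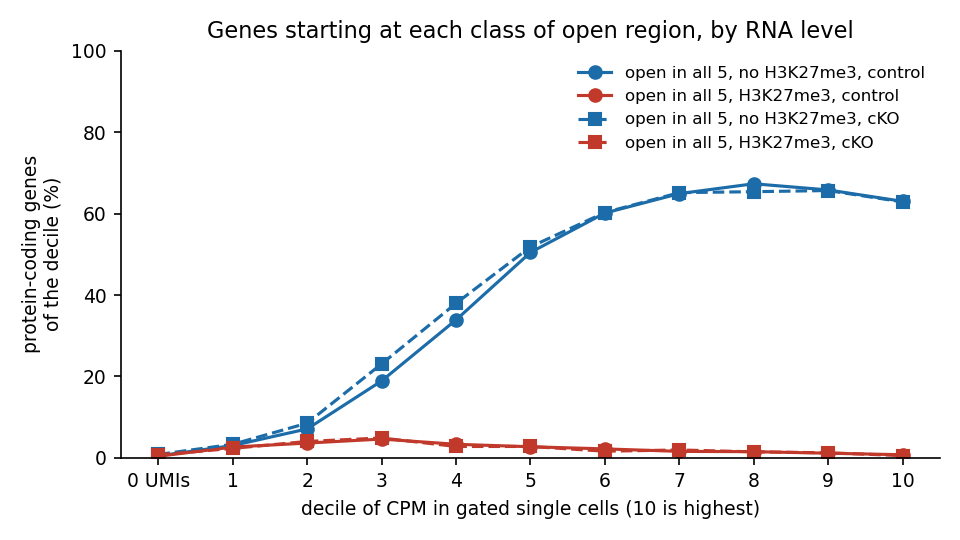
Protein-coding genes ordered by CPM in gated single cells (horizontal axis, genes with 0 UMIs and then deciles of the rest), with the share of each group (vertical axis, %) that starts at a region open in all 5 libraries, without H3K27me3 (blue) or with it (red). In control the blue share climbs from 0.484% at 0 UMIs to 67.3% in the eighth decile and is 63.0% in the top decile.

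Level and openness went together up to a plateau. In control cells the set held 3.02% of genes in the lowest decile, 33.9% in the fourth, 60.1% in the sixth and 63.0% in the highest. Marked genes peaked at 4.61% in the third decile and were 0.756% in the highest. Of the 100 most abundant genes in control, 70 started in the set, 17 at regions open in fewer libraries, 12 at none and 1 at a marked open region. Among members, Rpl13, a ribosomal protein gene, was at 2276 CPM in control and 2542 in cKO, Ezh2 at 128 and 117, Stra8 at 121 and 90.4, and Prdm9 at 26.3 and 13.6. Stra8 and Prdm9 were used for the gate. Ribosomal protein genes have near-identical pseudogene copies, so their levels are uncertain.

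Few genes differed by 2-fold between the libraries, in the set or elsewhere. Over the 8922 protein-coding genes with at least 50 UMIs in both libraries together, 0.392% were lower in cKO and 0.112% were higher, by a log2 difference of at least 1 in CPM plus a pseudocount of 1. In the set, 12 of 5260 genes (0.228%) were lower and 4 (0.0760%) higher, and the set supplies most of the genes tested. The lower share was 0.629% for genes at marked open regions (1 gene), 0.519% at regions open in fewer libraries and 0.840% for genes with no open region, and the higher share was 0.629, 0.0865 and 0.252%. These differences in share were not tested, and the classes were not matched by RNA level. Over all genes read, the control median was 27.8 CPM in the set, 3.18 for marked genes and 3.52 at regions open in fewer libraries. The median log2 difference was -0.04 for the set and -0.02 for all genes. Kdm6a was among the lower genes. Its count was 81 UMIs in control, 9.19 CPM (exact 95% Poisson interval 7.30 to 11.4), and 18 in cKO, 3.22 CPM (1.91 to 5.08), intervals that cover counting error only. Where the counted tags lie relative to the deleted exons is not given by the labels, so this level is no check of the deletion.

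The other 11 lower genes, named because they passed that size after their values were seen, were Clasrp, Acap2, Tbc1d8b, Fosb, Zfp202, Gopc, Rad51ap2, Aldh6a1, Dclre1c, Qtrt2 and Ric1. Clasrp, which encodes a splicing regulator, had the largest difference among them on the log2 scale, -1.41, from 108 CPM (101 to 115) to 40.0 CPM (35.0 to 45.6). The 4 higher genes were Map4k1, Acy1, Mmaa and Zfp607b. Map4k1, a kinase gene, was at 26.1 CPM (22.8 to 29.7) in control and 79.5 CPM (72.3 to 87.3) in cKO. Clasrp, Fosb, Map4k1 and Zfp607b, with the largest difference in each direction among them, all lie on chromosome 7, which holds 448 of the 5260 genes of the set (8.52%). Of all 45 genes past that size, 10 lie on chromosome 7, which holds 8.24% of the genes tested. Regions of all 16 genes were, by the rule, open in both genotypes.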

How the data were processed

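ATAC-seq and CUT&Tag lists were made per library. Per the submitters' processing notes, ATAC-seq used cutadapt, Bowtie2 and MACS2, CUT&Tag used cutadapt, Bowtie2, SAMtools, deepTools and SEACR, and the build was mm10. For each peak the deposited ATAC lists give a score, the -log10 of p and q, and a ratio, the fold enrichment over the caller's background. The deposited CUT&Tag lists give the summed and highest signal of each region, which was not compared between libraries. The deposited single-cell matrices hold raw UMI counts per gene and barcode from Cell Ranger (4 in the file headers), and Seurat 4.1.0 is also named. Cells of at least 3000 UMIs and 500 genes were kept, doublets were not called, and counts were summed over gated cells.

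Regions were merged, placed and summarised in Python 3.11.15 (numpy 2.4.6, pandas 2.3.3, scipy 1.17.1), and the steps were tested on simulated data. A gene was at a region when a tabulated start lay within 500 bp. Regions were named by highest lowest percentile, by width and by smallest -log10 q, and list genes by mean percentile. The promoter table holds 27025 genes and is not complete. Bulk RNA-seq was not used here. The regions and gene lists were chosen with earlier results of these data known.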

Additional observations from a re-analysis of the deposited data

How the results depend on the processing

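The number of regions stayed within 1.5 times of 7985 under the alternatives tried, except with 50% cover, which gave 3976. It ran from 8010 to 10460 with 1 library left out, which loosens the rule. Library numbers 1 and 2 occur in both genotypes, but no label says that they pair samples. A replicate block over numbers 1 and 2 leaves out cKO 3. Its mean difference was -16.4 percentage points for covered bases, 15.6 for the share of peaks and -1.72 for H3K27me3 within 5 kb. These are the values without cKO 3, so the block is no separate check. For ATAC-seq it also pairs control 1 with cKO 1, the library in doubt. Leaving out 1 library gave -16.4 to 1.85 for covered bases, where control 2 or cKO 1 turned the sign, and -2.89 to 15.6 for the share of peaks, where the same libraries did. For H3K27me3 within 5 kb it gave -1.85 to -0.476. The percentile difference ran from 17.1 with -log10 q of at least 3 to 25.4 without cKO 3. The share at a gene start was 68.3% inside, 71.1% within 2 kb, 76.1% with -log10 q of at least 3, and 63.7 to 69.5% with 1 library left out. Genes detected were 94.6% in control and 90.4% in cKO with 4 markers, and 91.4 and 85.7% with 5, a gate added after the data were seen. Without cKO 1 they were 95.8 and 93.7%. The causes were not tested. Peak lists hold no reads, so the depth behind an absent peak is unknown.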

Other observations

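Of the 2348 regions of the set away from a tabulated start, 66.3% overlapped a gene body, against 70.3% of such marked regions and 60.1% of the others. Over 10 kb from any tabulated start lay 76.9%, against 64.0 and 72.6%. RefSeq lists 6656 further genes that the promoter table lacks, and an end of such a gene lay within 500 bp of 748 of these regions (31.9%), against 23.1% of marked and 4.25% of other regions away from starts. The share of 69.8% at starts is therefore a count of tabulated starts only.

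Of 408 tRNA genes, 104 (25.5%) lay within 500 bp of the set, 2 of a marked open region and 99 (24.3%) of a region open in fewer libraries. The set had 39 of 977 snRNA genes (3.99%), 39 of 1308 snoRNA genes (2.98%) and 55 of 1194 miRNA genes (4.61%) within that distance. Regions open in fewer libraries had 22 (2.25%), 124 (9.48%) and 114 (9.55%). Distance was taken to the gene, not its start, and no share over all genes was taken this way. Many of these genes lie in clusters or inside host genes, so one region can count for several.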
